A study of Mus musculus with 9 samples.

Results

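*Dab1* encodes Disabled-1, the adaptor that carries the reelin signal into migrating neurons, and CTCF was mapped across it by ChIP-seq in neural stem cells (NSCs). The members described are the merged CTCF peaks that overlap the body of *Dab1* or the 50 kb on either side of it, 198 of the 225769 peaks of the series. The gene (ENSMUSG00000028519.16) lies on the plus strand of chromosome 4 at chr4:103619359-104744844 (GRCm38, GENCODE M21) and spans 1125.49 kb. One intronic peak, chr4:104362651-104363850, had been picked beforehand, chosen by its values in the 3 genotypes, low in the point mutant, so its own values are given as a description with no test, and the other 197 peaks of the gene are the ground against which it was placed.

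All cells were primary female NSCs from the cortex of E14.5 C57Bl/6 embryos, grown in EGF and basic FGF. A figure legend of the study calls the replicates biological, without stating whether each CTCF library came from its own cell line. MommeD43-GFP NSCs (3 libraries) were homozygous for an *Smchd1* allele that carries the MommeD43 point mutation and a GFP fusion. *Smchd1* del/del NSCs (2 libraries, called null below) were made in culture by deleting a floxed allele with a Cre retrovirus under puromycin selection, and carried no GFP tag. *Smchd1* GFP/GFP NSCs (3 libraries, called control below) carried the GFP fusion alone and served both mutants, so the null differed from this control in the tag, the virus and the drug as well, and these cannot be told apart from the deletion.

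CTCF is a zinc finger protein that binds a directional DNA motif and, with cohesin, anchors chromatin loops and domain borders. In the developing cortex reelin, secreted by Cajal-Retzius cells, binds the receptors VLDLR and LRP8 (ApoER2), which recruit DAB1. Src family kinases then phosphorylate DAB1, and loss of reelin, of both receptors or of DAB1 disturbs the layering of the cortex and cerebellum in mice.

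The table gives 1 value per genotype, the authors' mean over its libraries of log2 RPM (reads per M reads of the library). Read from the steps among its lowest values, the geometric mean library held 49.2 M reads for MommeD43-GFP, 50 M for the null and 41.7 M for control. The lowest null values gave whole read products for 100% of them when read as the 2 libraries of the labels and for 28.2% when read as 3. No spread between libraries stands behind any value. Every error below is therefore a counting error (1 SE on the log2 scale, from the reads behind each value), no p-value is given, and whether a difference exceeds the spread between libraries was not tested. At the median *Dab1* peak the values rest on 28.1 reads per library in MommeD43-GFP, 26.8 in the null and 22.4 in control NSCs, with counting errors of 0.16, 0.20 and 0.18 in that order. A ChIP table holds no transcript levels, so neither the NSC identity nor the *Smchd1* genotypes were checked here.

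The low peak is 1200 bp long. The sequence around its best match to the core CTCF motif is shown first because the questions asked of the peak turn on it. The stretch chr4:104362950-104363249 (GRCm38.p6, RefSeq, plus strand), with the 12 matched letters in capitals, reads as follows.
low peak: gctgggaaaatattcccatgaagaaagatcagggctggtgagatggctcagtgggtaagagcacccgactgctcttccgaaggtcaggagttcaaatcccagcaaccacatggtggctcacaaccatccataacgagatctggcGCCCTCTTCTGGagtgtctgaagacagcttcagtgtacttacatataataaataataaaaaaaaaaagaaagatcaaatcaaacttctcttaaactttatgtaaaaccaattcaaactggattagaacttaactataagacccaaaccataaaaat
The match at chr4:104363094-104363105 runs on the minus strand and holds 11 of the 12 letters of the core motif. It lies inside a stretch of 198 bases that the RefSeq genome masks as repeat, chr4:104362975-104363172, which makes up 16.5% of the peak. No repeat annotation was used here, but the letters of that stretch read as a B2 SINE, a rodent family of short repeats known to carry CTCF sites.

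Sites of *Dab1* are set side by side below, each read 5′ to 3′ on its own motif strand with the 12 matched letters in capitals, to show the low peak's site beside another with the very same letters, the 2 peaks of the gene with a full match, and the tallest of the peaks that were 2-fold higher in the null.
low peak, chr4:104363080-104363119, minus strand, 11 of 12 letters: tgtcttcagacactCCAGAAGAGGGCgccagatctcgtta
same 12 letters, chr4:104518767-104518806, plus strand, 11 of 12 letters: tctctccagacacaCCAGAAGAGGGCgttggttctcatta
full match, chr4:104345415-104345454, minus strand, 12 of 12 letters: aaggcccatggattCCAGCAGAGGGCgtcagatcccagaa
full match, chr4:104209273-104209312, plus strand, 12 of 12 letters: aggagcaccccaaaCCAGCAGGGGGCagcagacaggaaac
higher in the null, chr4:104725843-104725882, plus strand, 11 of 12 letters: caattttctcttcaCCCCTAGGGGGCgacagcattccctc

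CTCF at the low peak was -1.79 in MommeD43-GFP, 1.36 in the null and 0.82 in control NSCs, on the log2 RPM scale. These levels correspond to a geometric mean of 14.2, 128 and 73.4 reads per library in the same order. The peak was thus among the strong ones of the gene in the null and the control and among the weakest in the point mutant. The difference was -2.61 ± 0.24 for MommeD43-GFP less control, a 6.11-fold lower value. For MommeD43-GFP less the null it was -3.15 ± 0.24, or 8.90-fold lower. For the null less control it was 0.54 ± 0.13, so the null stood on the other side of control from the point mutant. The read counts of the 3 MommeD43-GFP libraries multiply to 2856, which means that none of them was at 0, but 46 sets of 3 whole numbers give that product and the table does not show which was real. A single library could therefore set the pooled value, and this was not tested.

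Ordered by level among the 198 peaks, the low peak ranked 193rd from the top in MommeD43-GFP, 8th in the null and 11th in control NSCs. In MommeD43-GFP only 5 peaks of *Dab1* had a lower value, from -2.05 at chr4:104737801-104738100 to -1.81 at chr4:104415601-104415900. Those 5 are 300 or 750 bp long. Per kb of peak the low peak was the lowest of all 198 in MommeD43-GFP, 5th from the top in the null and 12th in control NSCs. Among all 225769 peaks, 3.09% lay below it in the MommeD43-GFP column, 87.1% in the null column and 81.7% in the control column.

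**Figure D1:**
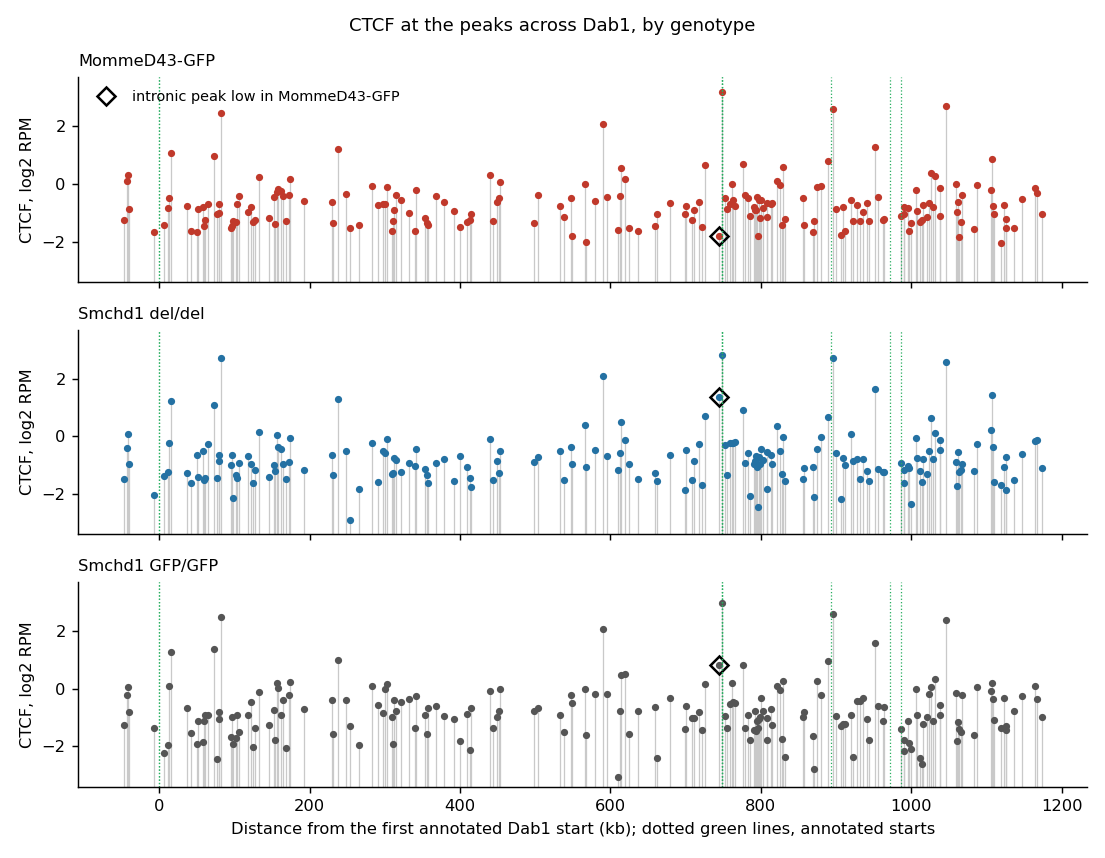
CTCF level (log2 RPM, y axis) at the 198 peaks by distance in kb from the first annotated *Dab1* start (x axis), in MommeD43-GFP (top), the null (middle) and control NSCs (bottom), with 1 point per peak, annotated starts as dotted lines and the low peak as an open diamond. The diamond sits at -1.79 in the point mutant, against 1.36 in the null and 0.82 in control, while the tallest peaks stand at like heights in all 3 panels.

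The low peak lies in the gene's interior and close to a set of starts. In the long protein-coding transcript Dab1-202 it falls in intron 3 of 9, which spans 317.1 kb at chr4:104161951-104479073. It ends 3.26 kb before the start of the protein-coding transcript Dab1-206 (position 104367113) and 3.74 kb before the shared start of Dab1-203 and Dab1-207 (position 104367590). The next peak downstream, chr4:104366251-104369400, covers those short-isoform starts and is the tallest CTCF peak of *Dab1*.

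That tall promoter peak measured 3.20 in MommeD43-GFP, 2.82 in the null and 2.96 in control NSCs. Its difference from control was 0.24 ± 0.06 in MommeD43-GFP and -0.13 ± 0.07 in null NSCs, and MommeD43-GFP less the null was 0.38 ± 0.07. The promoter peak was thus not low in the point mutant. The nearest peak upstream, chr4:104344801-104345850, holds one of the full motif matches and measured 0.65 in MommeD43-GFP, 0.71 in the null and 0.17 in control NSCs. Its differences from control were 0.48 ± 0.15 in MommeD43-GFP and 0.54 ± 0.17 in null NSCs, higher in both. The other 4 neighbours are weak, with values between -1.68 and -0.26 over the genotypes, and MommeD43-GFP less control ran from -0.09 ± 0.29 at chr4:104341501-104341800 to 0.49 ± 0.26 at chr4:104373451-104374050. None of the 6 neighbours was 2-fold apart in any comparison, so the low value was limited to 1 peak within the 25.6 kb upstream and 10.5 kb downstream that these neighbours cover.

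**Figure D2:**
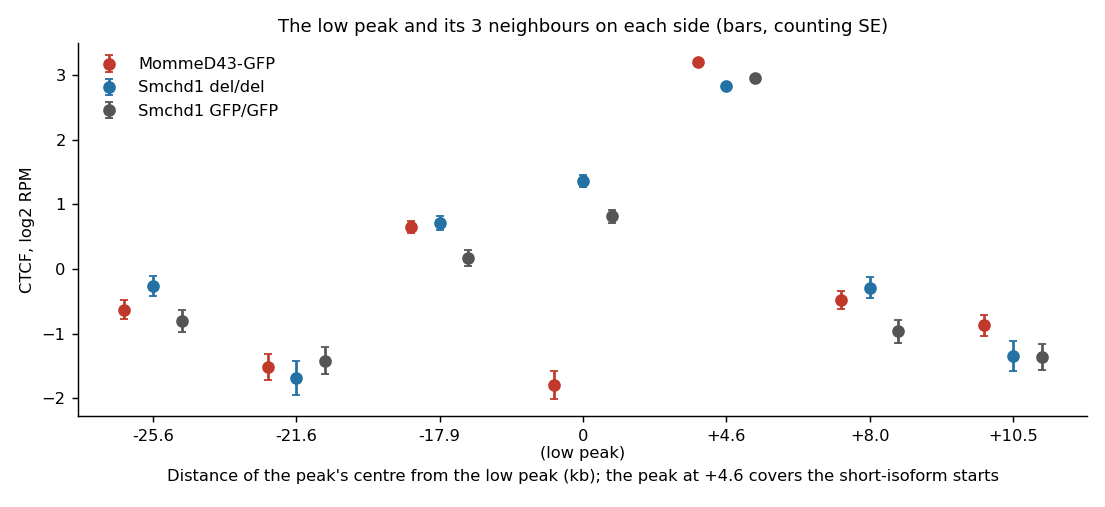
CTCF level (log2 RPM, y axis) at the low peak and its 3 neighbours on each side, by distance of their centres in kb (x axis, not to scale between peaks), in MommeD43-GFP (left point of each set), the null (middle) and control NSCs (right), with counting SE as bars. At the low peak the point mutant stands at -1.79, against 1.36 in the null and 0.82 in control, while at the promoter peak next to it the point mutant has the highest value, 3.20.

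Across the gene the CTCF peaks were many and mostly weak. The 198 peaks came to 1 per 6.19 kb of the window, and 186 of them overlap the gene body. By annotation 178 are intronic, 4 overlap an exon, 2 overlap a UTR alone, 2 lie within 1 kb of a start, 5 are upstream and 7 are downstream, where the flank reaches *C8b*, the gene of a complement subunit. Median levels were -0.81 in MommeD43-GFP, -0.90 in the null and -0.90 in control NSCs, against -0.50, -0.53 and -0.47 over all peaks of the series in that order. Only 60 of the 198 (30.3%) reached the median of all peaks, -0.53 as a mean of the 3 columns. These are called higher-level peaks below, the low peak among them, and the other 138 lower-level peaks. The *Dab1* peaks were also shorter, with a median of 600 bp against 750 bp over all peaks, and held less masked repeat, 7.33% against 16.2%.

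The 5 tallest peaks were close in the 3 genotypes. After the promoter peak came chr4:104514451-104515650 with 2.61 in MommeD43-GFP, 2.73 in the null and 2.59 in control NSCs. It starts 2.38 kb after the start of the protein-coding transcript Dab1-201. The peak at chr4:104664301-104667750 measured 2.69 in MommeD43-GFP, 2.59 in the null and 2.39 in control NSCs, and its difference of 0.30 ± 0.07 in MommeD43-GFP was the widest from control among the 5. The peak at chr4:103700101-103703100, in the 5′ part of the gene, had 2.46 in MommeD43-GFP, 2.71 in the null and 2.49 in control NSCs. The fifth, chr4:104208601-104210250, carries the other full motif match and gave 2.07 in MommeD43-GFP, 2.09 in the null and 2.07 in control NSCs. This intronic site was therefore equal in all 3 genotypes within its counting error of 0.09.

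The start of the long isoforms had no CTCF peak. Dab1-205 and Dab1-202 begin at 103619359 and 103619665, and no merged peak lay within 1 kb of either. The only other peak within 1 kb of a start was chr4:104605051-104605500 at Dab1-208, which was weak in every genotype with -1.13 in MommeD43-GFP, -0.94 in the null and -1.41 in control NSCs. Its differences from control were 0.28 ± 0.27 in MommeD43-GFP and 0.48 ± 0.29 in null NSCs.

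Between the point mutant and control, MommeD43-GFP NSCs stood 2-fold or more above control at 12 of the 198 *Dab1* peaks (6.06%) and 2-fold or more below it at 2 (1.01%). Over all peaks of the series 2.08% were 2-fold higher and 0.718% 2-fold lower in this comparison, so the share of higher peaks in *Dab1* was above that background. All 12 were lower-level peaks, however, and rested on 5.01 to 14.9 reads per control library, with counting errors of 0.26 to 0.43. Among lower-level peaks the higher share was 8.70% in *Dab1* (12 of 138), against 3.76% over all such peaks. With a loess trend on level removed, the count was 3 higher and 3 lower in *Dab1*, beside a background of 0.996% and 1.52%, so the count of higher peaks depended on how the trend of the difference with level was treated. Among the 60 higher-level peaks, 0 were 2-fold higher, beside a background of 0.41%. The 1 that was 2-fold lower was the low peak itself, which was picked for that value. It reached this level through the null and control columns. The share over all higher-level peaks was 0.0585%, but nothing is read from this count.

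The highest of these differences, 1.478 ± 0.39, was at chr4:104490001-104490300, with -1.30 in MommeD43-GFP, -2.12 in the null and -2.78 in control NSCs. It was followed by 1.46 ± 0.43 at chr4:104229751-104230050, where control was -3.05, the lowest control value of the gene. Differences of 1.42 ± 0.35, 1.36 ± 0.37 and 1.33 ± 0.34 came from chr4:103695751-103696200, chr4:104633701-104634000 and chr4:104281051-104281500. These sites are intronic, and the null was also above control at each of the 12, a comparison that uses the same control column. The peak just inside the 2-fold threshold, chr4:103677901-103678500, had a difference of 1.05, and the one just outside it, chr4:104397751-104398500, 0.98.

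Above the low peak's -2.61 there was a wide gap. The second lowest difference in the gene was -1.34 ± 0.27 at chr4:104167201-104167950, where CTCF was -1.82 in MommeD43-GFP, -0.94 in the null and -0.48 in control NSCs. The next 3 were -0.89 ± 0.27 at chr4:104255701-104256300, -0.86 ± 0.24 at chr4:104550301-104550900 and -0.82 ± 0.25 at chr4:104278201-104278800. At all 3 the null was below control as well, with differences of -0.72 ± 0.29, -1.05 ± 0.28 and -0.63 ± 0.28 in that order, a comparison that uses the same control column. Over the other 59 higher-level peaks, MommeD43-GFP less control ran from -0.67 to 0.67, and 55 of them were within 1.5-fold of control. The SD of the differences over the 198 peaks was 0.52, and 0.49 without the low peak, against 0.43 over all peaks of the series. Most *Dab1* peaks are lower-level, and over the other 59 higher-level peaks the SD was 0.295. The SD over all higher-level peaks of the series is not given here, so no wider spread in *Dab1* is read from these values.

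**Figure D3:**
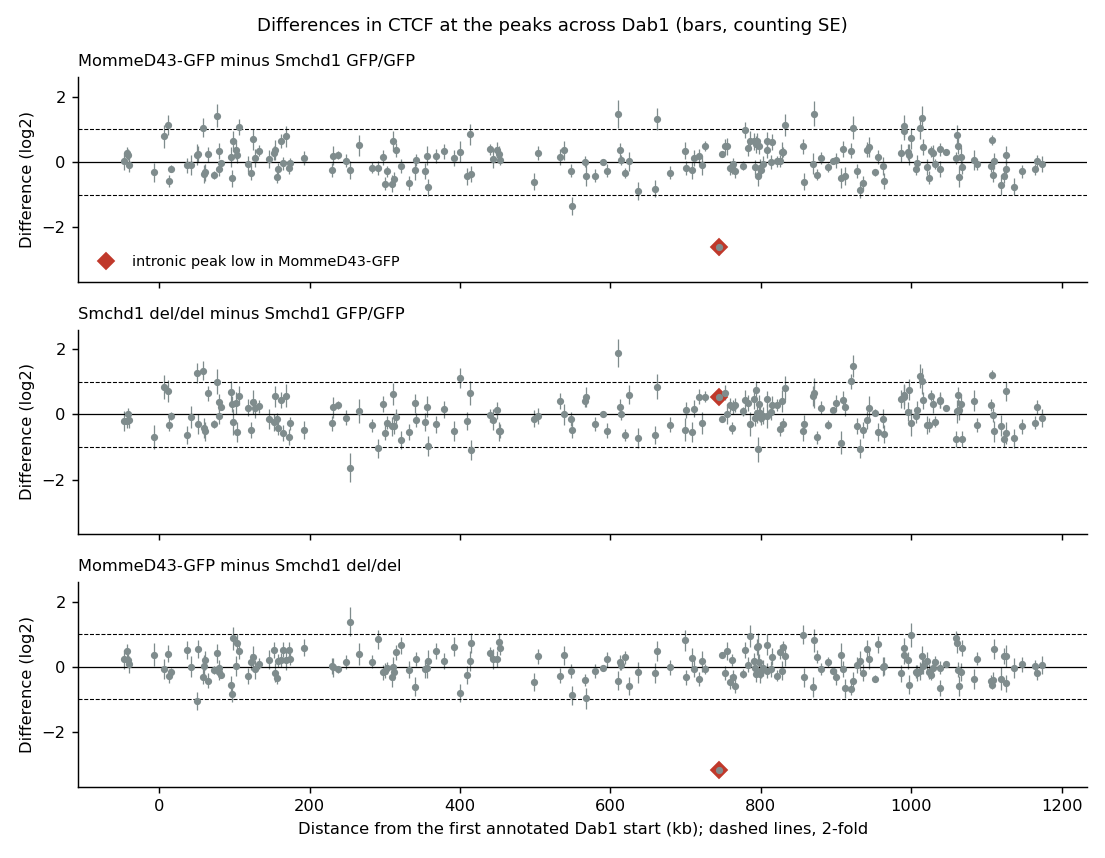
Difference in CTCF (log2, y axis) at each *Dab1* peak by distance in kb from the first annotated start (x axis), for MommeD43-GFP less control (top), the null less control (middle) and MommeD43-GFP less the null (bottom), with counting SE as bars and dashed lines at 2-fold. The low peak, the filled diamond, lies at -2.61 in the top panel and -3.15 in the bottom one, below every other peak of the gene, and at 0.54 in the middle one, inside the cloud.

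Between the null and control, 10 *Dab1* peaks (5.05%) stood 2-fold or more above control in null NSCs and 5 (2.53%) stood 2-fold or more below it, beside 3.31% and 1.85% over all peaks. Most *Dab1* peaks are lower-level, and of those 138, 8 (5.80%) were higher and 5 (3.62%) lower. The shares over all lower-level peaks are not given for this comparison, so no excess is read from these counts. Of the 60 higher-level peaks 2 were higher, beside a background of 1.54%, and 0 were lower, beside 0.34%. One of these, chr4:104725351-104726850 in the 3′ part of the gene, is the 10th tallest peak and measured 0.86 in MommeD43-GFP, 1.42 in the null and 0.19 in control NSCs. It was 1.22 ± 0.15 above control in the null and 0.67 ± 0.15 above it in the point mutant, where it was also the highest difference among higher-level peaks. The second, chr4:104538901-104539650, gave -0.57 in MommeD43-GFP, 0.10 in the null and -0.92 in control NSCs, a difference of 1.02 ± 0.23 in the null.

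The other 8 peaks higher in the null were weak, and the highest difference, 1.89 ± 0.43, was again at chr4:104229751-104230050, which had -1.59 in MommeD43-GFP, -1.17 in the null and -3.05 in control NSCs. Differences of 1.49 ± 0.35, 1.35 ± 0.30 and 1.27 ± 0.31 came from chr4:104541601-104542200, chr4:103677901-103678500 and chr4:103669051-103669500. The point mutant was above control at each of the 10. The 5 peaks lower in the null were all lower-level peaks, the lowest being chr4:103872901-103873200 with -1.52 in MommeD43-GFP, -2.91 in the null and -1.28 in control NSCs, a difference of -1.63 ± 0.44. At 6 peaks (3.03%) both mutants were 2-fold above control, beside 1.13% over all peaks, and both comparisons share the same control column.

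Between the mutants, 1 *Dab1* peak stood 2-fold or more above null NSCs in MommeD43-GFP and 2 stood 2-fold or more below, beside 1.26% and 1.08% over all peaks. The higher one was chr4:103872901-103873200 at 1.39 ± 0.44. Besides the low peak at -3.15, the lower one was the weak peak chr4:103669051-103669500 at -1.05 ± 0.28, where CTCF was -1.69 in MommeD43-GFP, -0.64 in the null and -1.91 in control NSCs. The SD of this difference was 0.47 over the 198 peaks and 0.41 without the low peak, against 0.42 over all peaks, so without that 1 site the spread in *Dab1* was near that of the whole series.

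**Figure D4:**
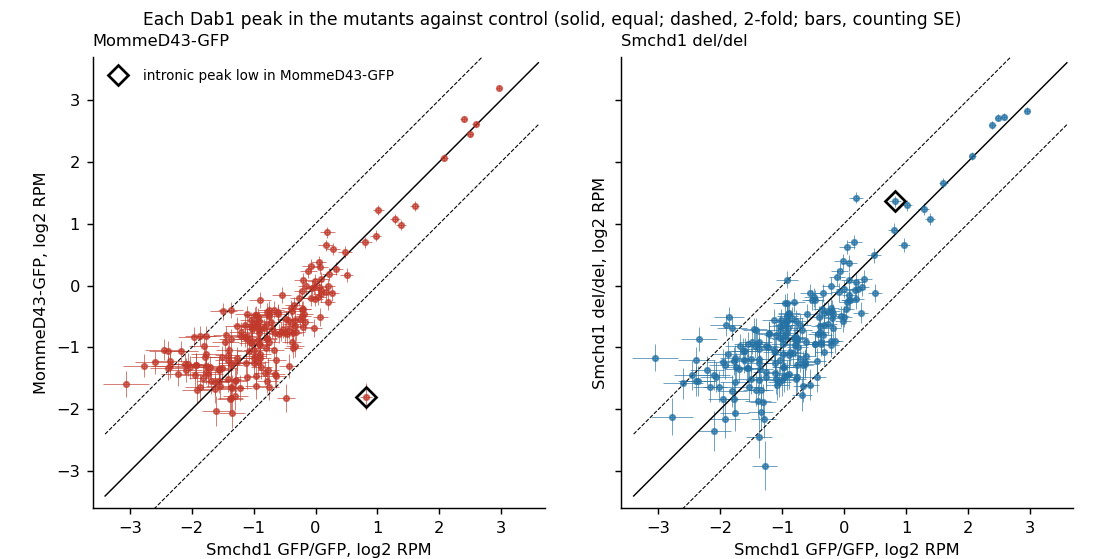
CTCF level (log2 RPM) of each *Dab1* peak in MommeD43-GFP (left) and null NSCs (right), on the y axes, against control NSCs on the x axes, with counting SE as bars, a solid line of equal values and dashed lines at 2-fold. The 5 tallest peaks lie close to the line in both panels, the 10th tallest lies 1.22 above it on the right, weak peaks scatter on both sides of it, and the open diamond of the low peak lies 6.11-fold below control on the left and 0.54 above it, on the log2 scale, on the right.

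Median differences in the 2 parts of the gene were small. Between the gene's beginning and the start of Dab1-206, where only the long isoforms run, 101 peaks had a median difference from control of 0.06 in MommeD43-GFP and -0.09 in null NSCs. From there to the end, where short isoforms also run, 85 peaks had medians of 0.13 in MommeD43-GFP and 0.13 in null NSCs. Peaks 2-fold higher in MommeD43-GFP numbered 6 of 101 in the long-isoform part and 6 of 85 in the short-isoform part, beside 2.08% over all peaks. All of them were lower-level peaks, for which the share over the series was 3.76%, and their number depended on how the trend with level was treated. The low peak, picked for its value, and the second lowest are both in the long-isoform part. None was 2-fold lower elsewhere, beside 0.718% over all peaks.

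Motif content in *Dab1* was below that of the series, in a comparison not matched for peak length or level. The core CTCF motif, searched on both strands, was in 2 of the 198 peaks (1.01%), against 3.79% of all peaks, and the relaxed motif CCNNNAGNNGGC, which takes in every core match, in 19 (9.60%), against 24.5%. A match of 11 or 12 letters to the core motif was in 17 *Dab1* peaks (8.59%), against 22.6% of all peaks, and 3 of the 17 lay wholly in masked repeat. Of the 10179 peaks of the low peak's own length, 29.5% had such a match, and in 41.4% of those it was wholly masked. The median level was 1.29 for the 2 peaks with the full match, -0.07 for the 15 with 11 letters, -0.56 for the 75 with 10 and -1.12 for the 106 with fewer, and median lengths fell over the same classes through 1350, 1050, 750 and 450 bp. Per kb, the median of the full-match class was 0.90 and those of the other 3 were -0.09, -0.15 and -0.03, so the class of the 2 full matches still had the highest median but among the other classes the order by motif did not hold once length was divided out.

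The low peak's 12 letters were common. The same letters were in 16713 peaks of the series (7.40%), 3 of them in the *Dab1* window. The other peak within the gene, chosen after its values were seen, is the weak intronic chr4:104518501-104519100, also in masked repeat, with -0.89 in MommeD43-GFP, -0.59 in the null and -0.93 in control NSCs. MommeD43-GFP less control was 0.05 ± 0.24 there. In the downstream flank, chr4:104783701-104784900 had -0.14 in MommeD43-GFP, -0.16 in the null and 0.09 in control NSCs. Of the 15166 higher-level peaks of the series with these letters, 6 (0.0396%) were 2-fold lower and 88 (0.58%) were 2-fold higher in MommeD43-GFP than in control NSCs, with a median difference of 0.11. Over all higher-level peaks these shares were 0.0585% and 0.41%, and the median difference was -1.8e-05. Among peaks with the letters the share lower was thus slightly below the background, the low peak being one of the 6. The share higher and the median were above it.

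The repeat itself was also widespread. A 24-base stretch of the masked element, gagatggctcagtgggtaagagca at chr4:104362989-104363012 (plus strand), chosen after the sequence was read, was in 2591 peaks (1.15%), of which the *Dab1* window holds the low peak and chr4:104474701-104475450. That second peak had -0.48 in MommeD43-GFP, -1.48 in the null and -0.97 in control NSCs, the reverse order of the low peak between the mutants. Among the 2303 higher-level peaks of the series with this stretch (2.04% of such peaks), the median of MommeD43-GFP less control was 0.05, and 6 (0.261%) were 2-fold lower and 1 (0.0434%) was 2-fold higher. The lower share was above the 0.0585% of all higher-level peaks and the higher share below their 0.41%, but the stretch was taken from the low peak, which is one of the 6, so the counts are a description.

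Over the series, 382 peaks (0.169%) were at least 2-fold lower in MommeD43-GFP than in both other genotypes, 33 of them higher-level peaks (0.0292% of such peaks). The low peak was the only one of *Dab1* in either set. Of the 33, 10 lay on chromosome 12, 9 on chromosome 15, 4 each on chromosomes 13 and 19, and 2 on chromosome 4, where the other was chr4:32041051-32042700 at the predicted gene *Gm11927*. The share of all higher-level peaks that each chromosome holds was not computed, so nothing is read from these counts. The 24-base stretch was in the same 6 peaks as above, and the 12 letters in 5 of the 33, both counts including the low peak from which the letters were taken. Without it the stretch was in 5 of 32 (15.6%), against 2.04% of higher-level peaks, and the 12 letters in 4 (12.5%), against 13.4%. Since the 33 were selected by their values and reached that level through the null and control columns, nothing is read from these shares. The low peak had the lowest value of MommeD43-GFP less control of all 112885 higher-level peaks, ranked 69th from the lowest when weaker peaks were included, and ranked 4th from the lowest in MommeD43-GFP less the null among higher-level peaks.

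Likeness to the low peak was measured as Euclidean distance over the 2 differences of MommeD43-GFP from the other genotypes, across higher-level peaks. The closest peak lay in *Erich5* on chromosome 15 (distance 0.64), followed by *Asap2* on chromosome 12 (0.75), *Kank1* on chromosome 19 (1.02), and *Fam173b* (1.38) and *Gm32618* (1.43), both on chromosome 15. At *Erich5* and *Asap2* the null exceeded control by 1.14 ± 0.14 and 1.21 ± 0.14, more than at the low peak of *Dab1*. At *Kank1* and *Fam173b* the null was close to control, with differences of 0.08 ± 0.15 and -0.10 ± 0.15. Best matches to the core motif held 11 letters at *Erich5* and *Asap2*, as in *Dab1*, and neither match was in masked repeat. The best match at *Kank1*, of 10 letters, lay wholly in masked repeat as in *Dab1*, and those at *Fam173b* (9 letters) and *Gm32618* (10 letters) did not.

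The rest of the reelin pathway was followed at 26 genes, each with 10 kb on either side, which hold 427 peaks. In MommeD43-GFP less control, 5 (1.17%) were 2-fold higher and 4 (0.937%) 2-fold lower, beside 2.08% and 0.718% over all peaks, and the median was -0.0098 against 0.0069 over all peaks. In the null less control, 11 (2.58%) were higher and 3 (0.703%) lower, beside 3.31% and 1.85%. Between the mutants 2 were higher and 4 lower in MommeD43-GFP, beside 1.26% and 1.08%. These shares were near or below the background, apart from the share lower in MommeD43-GFP than in control, which was slightly above it.

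The ligand gene *Reln* held 75 of the peaks, and its 5′ promoter peak, chr5:22343401-22344450, measured -0.06 in MommeD43-GFP, 0.40 in the null and 0.28 in control NSCs. The tallest *Reln* peak near an annotated start, chr5:21932551-21935400, carries a full motif match and was close in the 3 genotypes, with 1.67 in MommeD43-GFP, 1.71 in the null and 1.74 in control NSCs. At the other 4 *Reln* peaks near a start, MommeD43-GFP less control ran from -0.51 ± 0.23 to 0.52 ± 0.30. The promoter peak of *Vldlr*, a reelin receptor, had 0.52 in MommeD43-GFP, 0.72 in the null and 0.86 in control NSCs. Of the 4 promoter peaks of the receptor gene *Lrp8*, also on chromosome 4, the tallest, chr4:107841751-107846550, had 3.25 in MommeD43-GFP, 3.09 in the null and 3.30 in control NSCs, and the widest difference was -0.61 ± 0.09 in null NSCs at chr4:107846701-107852700. None of the promoter peaks of the ligand and the receptors was 2-fold apart.

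Of the 210 higher-level peaks over the 26 genes, 1 (0.476%) was 2-fold lower in MommeD43-GFP than in control NSCs, beside 0.0585% of all such peaks. None was otherwise 2-fold apart. The shares over all higher-level peaks were 0.41% higher in that comparison, 1.54% higher and 0.34% lower in the null, and 0.114% and 0.23% between the mutants. The 1 peak was chr10:117821701-117822750 in *Rap1b*, a small GTPase activated through the CRK adaptors. It had -0.80 in MommeD43-GFP, -0.47 in the null and 0.24 in control NSCs, and a difference of -1.04 ± 0.20 in MommeD43-GFP. Unlike the low peak of *Dab1* it was also below control in the null, with a difference of -0.71 ± 0.21 from the same control column. No peak at that level was 2-fold apart at *Fyn* and *Src*, kinases that phosphorylate DAB1, at *Crk* and *Crkl*, adaptors that bind its phosphorylated form, at *Rapgef1*, the exchange factor that these adaptors carry, or at *Cul5* and *Socs7*, which direct its degradation. Beside the low shares over all higher-level peaks, nothing is read from these absences.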

How the data were processed

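Primary female NSCs were profiled by CTCF ChIP-seq. For upstream steps the labels and the study's methods name Bowtie2 2.3.4.1 (mapping to GRCm38), SAMtools 1.7, Trim Galore 0.4.4, cutadapt 2.9, FastQC 0.11.8 and R 4.2.0. Peaks were called in SeqMonk for each genotype and overlapping ones were joined into a single list. The deposited values are log2 RPM over a merged peak, given by the authors as 1 mean per genotype. They are not scaled to peak length, so longer peaks read higher. Duplicate removal is not given in the sources used here. Since the 3 columns are pooled, the branch of the design without a test was used. The labels give 2 *Smchd1* del/del libraries where a figure legend of the study states 3 replicates per genotype, and 2 was used because the lowest deposited log2 values all decode to whole reads with 2 but not with 3. The input library was not used here.

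Reads were recovered from the steps among the lowest values, with 0 reads entered as 0.9. The recovery was run on simulated data that entered 0 reads the same way, so that choice was not tested by it. Differences of the pooled values were taken for 3 comparisons, with counting errors from those reads, so shallower values carry wider errors, and peaks 2-fold or more apart were counted. Genes, introns and starts (a peak within 1 kb) came from GENCODE M21, and GC content, masked repeat and motifs from GRCm38.p6 (RefSeq). Named peaks were the low peak and its 3 neighbours on each side, peaks at starts, the 5 tallest, the 5 highest and 5 lowest in each difference, peaks 2-fold apart and peaks with the core motif. For the pathway they were higher-level peaks 2-fold apart and the promoter peaks of *Reln*, *Vldlr* and *Lrp8*. The members and lists were chosen with earlier results of these data known.

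Alternatives were a common column median, quantile normalization, a loess trend, centring in 20 bins of GC content, other flanks, pseudocounts of 0.1 and 1, a level filter, and counting at 1.5-fold or 4-fold. Leaving the low peak out was chosen after seeing the data. Software was pysam 0.24.0, statsmodels 0.14.6, numpy 2.4.6, pandas 2.3.3, matplotlib 3.10.9 and Python 3.11.15.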

Additional observations from a re-analysis of the deposited data

How the results depend on the processing

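The low peak, picked for its values, kept its direction in all 3 differences under every scaling and pseudocount tried. A pseudocount added to both columns can shrink a difference but cannot reverse it, so nothing is read from the kept direction. Its MommeD43-GFP less *Smchd1* GFP/GFP of -2.61 shrank to -1.10 and its MommeD43-GFP less *Smchd1* del/del of -3.15 to -1.47 with a pseudocount of 1, and its *Smchd1* del/del less *Smchd1* GFP/GFP of 0.54 was 0.28 when centred within bins of GC content. Of the alternatives set against their main values, 110 stayed within the error or within 1.5 times the main count, and 55 moved. The low peak reversed in 0 of them, but of 45 median differences, all close to 0, 13 changed sign, none of them beyond 0.074 in size.

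Counts over the *Dab1* peaks depended on how weak peaks were treated. For MommeD43-GFP against *Smchd1* GFP/GFP, the 12 higher peaks became 7 with quantile normalization, 2 with a pseudocount of 0.1, 0 with a pseudocount of 1, 3 with the loess trend removed and 0 among higher-level peaks, and the 2 lower became 1 with a pseudocount of 1, 1 among higher-level peaks and 1 without the low peak. Over all peaks the share higher fell as well, from 2.08% to 1.37%, 0.745%, 0.00133%, 0.996% and 0.41% in that order. The 1 lower with a pseudocount of 1 or among higher-level peaks was the low peak, picked for its value. For *Smchd1* del/del against *Smchd1* GFP/GFP, the 10 higher became 5 and 0 with pseudocounts of 0.1 and 1 and 2 among higher-level peaks, and the 5 lower became 3 with a common median, quantile normalization or GC centring, 1 and 0 with the pseudocounts and 0 among higher-level peaks. Over all peaks the share higher fell from 3.31% to 1.81%, 0.0837% and 1.54% in that order. The share lower, 1.85% in the main setting, was 1.42%, 1.66%, 2.01%, 0.591%, 0.000886% and 0.34% in that order. For MommeD43-GFP against *Smchd1* del/del, the 1 higher became 0 with either pseudocount, the loess trend removed or keeping higher-level peaks and 2 with GC centring, and the 2 lower became 4 with quantile normalization and 1 with either pseudocount, keeping higher-level peaks or without the low peak. Over all peaks the share higher moved from 1.26% to 0.317% and 0.00443% with the pseudocounts, then 0.552%, 0.114% and 1.13% in that order. The share lower moved from 1.08% to 1.74% with quantile normalization, 0.416% and 0.0177% with the pseudocounts and 0.23% among higher-level peaks. At 1.5-fold the counts were 29 higher and 15 lower, 25 and 20, and 21 and 13 for the comparisons in this order, and at 4-fold 0 and 1, 0 and 0, and 0 and 1. The share over all peaks was not computed at either threshold, so nothing is read from these counts.

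Median differences over *Dab1* were -0.074, -0.11 and -0.028 among higher-level peaks, against 0.04, -0.0047 and 0.03 over all 198. The median of *Smchd1* del/del against *Smchd1* GFP/GFP was 0.055 with a common column median, and that of MommeD43-GFP against *Smchd1* del/del -0.035 with the loess trend removed. At the pathway genes, the 5 peaks higher in MommeD43-GFP than in *Smchd1* GFP/GFP became 1 with the loess trend removed, while the share over all peaks fell from 2.08% to 0.996%. There, MommeD43-GFP against *Smchd1* del/del gave 8 lower with quantile normalization, and 1 higher and 8 lower with the loess trend removed. Over all peaks the share lower rose as well, from 1.08% to 1.74% with quantile normalization and 1.76% with the loess trend removed. The share higher was 0.552% with the loess trend removed. Pathway medians with a common column median were 0.029 for *Smchd1* del/del against *Smchd1* GFP/GFP and 0.0048 between the mutants, and -0.0019 and 0.0069 with GC centring. No flank choice changed a *Dab1* count. With gene bodies alone, each pathway count stayed within 1.5 times its main value. The number of peaks left is not given, so nothing is read from this. No paired analysis was possible because the 3 columns are pooled and carry no replicate numbers, and for the same reason no library could be left out. With 14.2 reads per library behind the low MommeD43-GFP value, counting alone gives its difference from *Smchd1* GFP/GFP an error of 0.24, and the spread between libraries is unknown.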

Other observations

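The exons and UTRs of *Dab1* held few CTCF peaks, 4 and 2 of the 198. The strongest of these, chr4:104678101-104679000, measured -0.01 in MommeD43-GFP, -0.90 in *Smchd1* del/del and -0.15 in *Smchd1* GFP/GFP NSCs. MommeD43-GFP less *Smchd1* del/del was 0.88 ± 0.23 there, the highest such difference among the higher-level *Dab1* peaks. The next exonic peak, chr4:104679451-104679900, had -0.97 in MommeD43-GFP, -1.71 in *Smchd1* del/del and -1.81 in *Smchd1* GFP/GFP NSCs. Neither was 2-fold apart in any comparison.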
